A study of Mus musculus with 46 samples.

Results

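Somatostatin is a secreted inhibitory peptide, and its gene, Sst, is the marker by which oriens-lacunosum moleculare (OLM) interneurons of the hippocampus are most often recognised. The 46 cells described here, each an OLM neuron, were divided by how much Sst mRNA they held. Cells at 15000 CPM or more (counts scaled to a total of 1000000 gene reads per cell) formed the high side, and cells below it the lower side. The sides were thus chosen by the measured Sst level, so the Sst values that follow describe the choice and are not a test of it. The high side had 20 of the 46 cells and the lower side 26. Of the 23 cells from the Htr3a Cre driver line, 15 were on the high side and 8 on the lower. Of the 23 cells from the Sst Cre driver line, 5 were on the high side and 18 on the lower. All cells came from mice between postnatal days 21 and 30, and their cytosol was drawn into a patch-clamp pipette before sequencing. In a Cre driver line the recombinase is made where the named gene is or was active; the labels do not say how single cells were picked, and no treatment is named. No animal is named for any cell, so each line counts as 1 sample, cells are not replicates of a condition, and no p-value is given. Standard deviations (SD) are between cells.

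Peptides of this kind are made as precursors. The signal recognition particle brings the nascent precursor to the endoplasmic reticulum (ER), where it passes the Sec61 translocon, is trimmed by signal peptidase and folded by chaperones. COPII vesicles carry cargo to the Golgi and COPI vesicles return material. Granins and processing enzymes then pack and cleave the precursor in dense-core granules, which a proton pump acidifies and Rab3 proteins and their partners prepare for release. In neurons, transcription of Sst is a textbook target of the cAMP-response element (CRE), the DNA element bound by CREB.

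The sequence just before the Sst start site is shown because it holds that element, and the windows of 4 secretory genes are shown for comparison. They are RefSeq windows of 120 bases ending at the base before the annotated start (GRCm38.p6), 5′ to 3′ on the gene's strand. Capitals mark a CRE (TGACGTCA) or the outer parts of an ER stress response element (CCAAT, 9 bases, CCACG), the element through which unfolded protein in the ER is known to raise chaperone genes.
Sst, chr16:23890845-23890964, minus strand: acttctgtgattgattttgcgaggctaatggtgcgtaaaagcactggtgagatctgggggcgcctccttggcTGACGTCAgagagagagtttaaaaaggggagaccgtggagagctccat
Chgb, chr2:132781522-132781641, plus strand: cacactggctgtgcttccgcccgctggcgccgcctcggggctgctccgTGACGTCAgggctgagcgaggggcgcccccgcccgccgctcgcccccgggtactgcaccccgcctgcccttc
Scg2, chr1:79440027-79440146, minus strand: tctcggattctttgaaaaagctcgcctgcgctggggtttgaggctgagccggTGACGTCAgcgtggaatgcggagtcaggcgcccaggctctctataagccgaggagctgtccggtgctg
Hspa5, chr2:34771970-34772089, plus strand: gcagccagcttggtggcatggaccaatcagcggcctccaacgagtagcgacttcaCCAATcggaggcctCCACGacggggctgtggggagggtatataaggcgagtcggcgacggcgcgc
Dnajc3, chr14:118937812-118937931, plus strand: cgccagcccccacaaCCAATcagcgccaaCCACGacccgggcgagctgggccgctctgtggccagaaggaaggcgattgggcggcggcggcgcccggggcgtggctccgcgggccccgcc

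The Sst CRE lay between positions -48 and -41, counted back from the start site. Both strands of the whole window, from 250 bases before to 50 after the start, were searched. Of 169 secretory genes tested, 131 had a window. A CRE was found in 4 of these, or 3.05%, against 3.84% of the 8445 tested genes with a window. Those 4 genes were the granin genes Chgb and Scg2, the prohormone convertase gene Pcsk1 and the COPI coat gene Cope. The UPR element TGACGTGG, a further element of the unfolded protein response, was found in 7 secretory genes, or 5.34%, against 1.14% of tested genes. The ER stress response element was found in 8, or 6.11%, against 0.189%. The 8 were Calr, Canx, Creld2, Dnajc3, Hsp90b1, Hspa5, Pdia6 and Syvn1. These are matches of letters and not shown binding sites.

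On the high side the Htr3a line ran from 15570.1 to 103853 CPM of Sst, with a median of 21135, and on the lower side from 4231 to 14016, with a median of 8886. The 5 high cells of the Sst line held 18965, 19102, 20024, 22297 and 81651 CPM. The 18 lower cells of that line ran from 1274 to 14765, with a median of 6856. The 3 cells just below the threshold were at 12448, 14016 and 14765 CPM, and the 3 just above it at 15570.1, 16003 and 16384. The spread was continuous across the threshold, and at the top Sst took 10.4% of all gene reads of 1 cell.

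**Figure D1:**
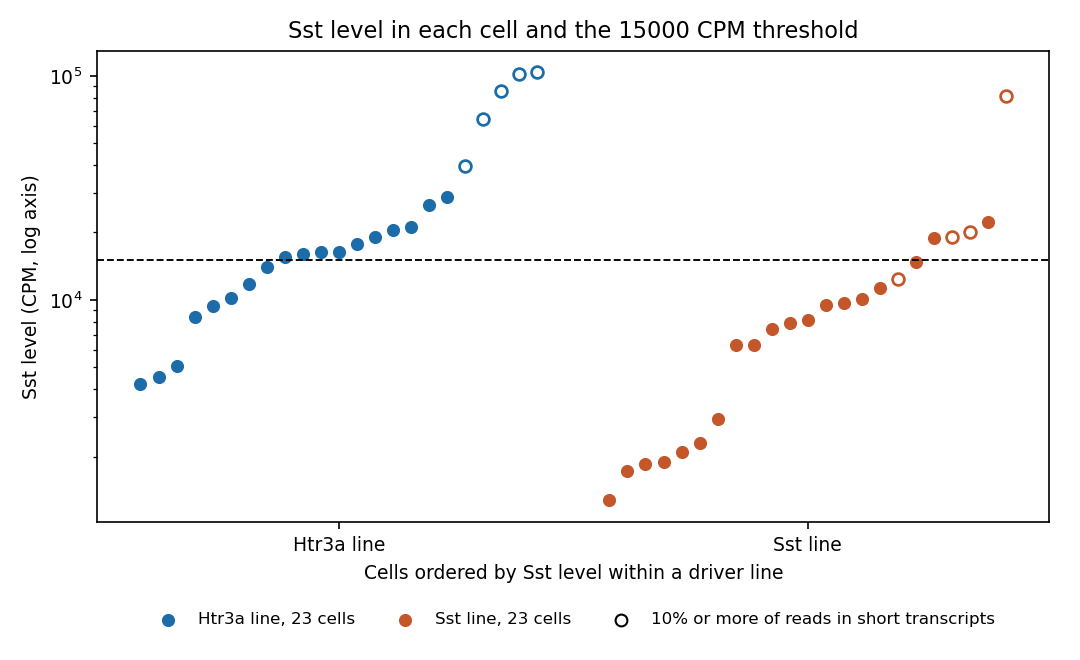
Sst level of each of 46 cells in CPM on a log axis, cells ordered within each driver line, with the 15000 CPM threshold as a dashed line. Open points are the 9 cells with 10% or more of their remaining reads in transcripts under 1000 bases; they include the 5 highest cells of the Htr3a line and the highest of the Sst line.

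All other genes were compared as log2(CPM + 1), with CPM recomputed without Sst, and a difference is the mean over high-side cells minus the mean over lower-side cells. A gene was tested for a fold when its mean over the 46 cells was at least 0.5 on that scale, which left 11211 genes, and a difference of at least 1, or 2-fold, was counted. In the Htr3a line 26.9% of tested genes were higher by the fold on the high side and 11.7% lower. The Sst line had 15.8% higher and 29.2% lower. With the lines pooled the shares were 13.8% and 6.73%. In both lines at once 5.37% were higher and 3.95% lower. The median over all tested genes was 0.33 in the Htr3a line, -0.34 in the Sst line and 0.15 pooled, so the same difference stands differently against its background in each line. By any amount, 62.1% of tested genes were higher in the Htr3a line and 39.1% in the Sst line, and 25.5% were higher and 24.3% lower in both. The counts of list members that follow are to be read against these shares. The median number of genes read was 8264 on the high side against 6893 on the lower side in the Htr3a line, and 6568 against 6442 in the Sst line. The part of library complexity in the differences was not tested.

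Some libraries stood apart. Over all 46 cells, 3174733 to 31346368 reads remained without Sst. Marker genes of microglia, oligodendrocytes and astrocytes together reached 2000 CPM or more in 17 cells. Their summed level ranged from 41.3 to 10811 CPM on the high side and from 103 to 14876 CPM on the lower side of the Htr3a line, and from 175 to 9413 against 218 to 11811 CPM in the Sst line. The ranges overlapped, and the part of these transcripts in the results was not tested. In 9 cells, transcripts under 1000 bases took 10% or more of the reads without Sst. These were Htr3a-line replicates 10, 11, 12, 20 and 23, all on the high side, and Sst-line replicates 14, 20 and 23 on the high side and 8 on the lower side. This limit was set after the data were seen. The next cell below it was at 9.62% and the lowest above it at 11.9%. One of them, Htr3a-line replicate 10, also held 12579 CPM of blood marker transcripts, where the next highest cell held 318, and 82070.1 CPM of cytosolic ribosomal protein transcripts, where the next held 31312. The part of either in the results was not tested. Results are given with and without these 9 cells, which leaves 10 high and 8 lower cells in the Htr3a line and 2 high and 17 lower cells in the Sst line. Those 2 high cells are replicates 1 and 17, and replicate 17 had 3224 genes read, the fewest of the 46 cells.

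The OLM label was checked against Sst and the genes that define this cell type. Sst and Crhbp, which encodes a binding protein for corticotropin-releasing hormone, were read in all 46 cells. Crhbp ran from 5.67 to 4898 CPM on the high side and from 2.46 to 2145 on the lower side of the Htr3a line, a difference of 0.16. The Sst line had a difference of 0.17. Leaving out replicate 4 gave -0.80 in the first, and leaving out replicate 14 gave -0.18 in the second. Gad1, the gene of the main GABA-synthesising enzyme, was read in all 46 cells but ran low in particular libraries. It was at 7.56 CPM in Htr3a-line replicate 20, 114 in replicate 11 and 126 in replicate 10, all on the high side, and at 0.448 in a cell of the lower side. Chrna2, the nicotinic receptor subunit gene often used to mark OLM cells, was read in 16 cells.

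Over all its lists, the secretory pathway lay close to the other genes. The 11 lists held 182 genes counted once each, of which 180 were in the table and 169 tested. Their median difference was 0.19 in the Htr3a line, -0.38 in the Sst line and 0.03 pooled, beside 0.33, -0.34 and 0.15 over all tested genes. The sign of this median depended on where the threshold stood. In the Htr3a line it was 0.76 at 10000 CPM of Sst, -0.54 at 20000 CPM and -0.12 at the line's median. The Sst line gave -0.06, 0.14 and 0.12, and the pooled cells 0.38, -0.31 and -0.02. Leaving out the 9 cells gave 0.61, -0.28 and 0.31, with 129 and 74 of the 169 genes higher in the Htr3a and Sst lines. By the fold, 45 members were higher and 13 lower in the Htr3a line, and 27 higher and 52 lower in the Sst line. The members higher by the fold in both lines were 9, namely Srp9, Sec61b, Ssr4, Dad1, Pdia4, Sar1b, Surf4, Ergic2 and Cope. The members lower by the fold in both were 3, namely Copa, Gbf1 and Atp6v0a1. Of 11211 tested genes, 602 were higher by the fold in both lines and 443 lower, so the members' share of higher genes was near the background and their share of lower genes was under it.

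With all cells, the medians of the lists for entry into the ER lay above 0 in both lines and those of the COPI, proton pump and granin lists below 0, and most of this order was not found without the 9 cells. The 16 genes of the translocon and signal peptidase had medians of 0.61 in the Htr3a line, where 13 were higher, and 0.56 in the Sst line, where 10 were higher. In the 37 other cells they were 0.97 and 0.55, with 13 and 11 higher. The 8 tested genes of the signal recognition particle and its receptor had medians of 0.86 and 0.26, and 0.53 and -0.50 without the 9 cells. The 19 COPI and Golgi genes had medians of -0.30 and -0.58, with 8 lower and 3 higher in both lines, and 0.02 and 0.15 without the 9 cells. The 17 genes of the vesicular proton pump had medians of -0.50 and -0.21, with 7 lower and 2 higher in both lines, and 0.31 and 0.20 without the 9 cells. Other lists went opposite ways in the lines, as did the medians over all tested genes, at 0.33 and -0.34. The oligosaccharyltransferase, which adds sugar chains to proteins entering the ER, had medians of 1.38 and -0.47 over 11 genes. The ER folding genes had 0.48 and -0.52 over 21, the unfolded protein response and ER degradation genes 0.08 and -0.81 over 20, and the COPII genes 0.32 and -0.33 over 23. Without the 9 cells these 4 lists gave 1.65 and -2.19, 0.92 and -0.36, 0.96 and -1.49, and 0.71 and -0.53, in the same order. Over all tested genes the medians were then 0.52 and -0.70, with 7691 and 3848 of 11211 higher. The Sst-line values without the 9 cells rest on high replicates 1 and 17, and replicate 17 had only 3224 genes read.

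Ssr4 encodes a subunit of the translocon-associated protein complex. On the high side of the Sst line its 5 cells held 116, 142, 164, 550 and 588 CPM, against 43.0 to 373 with a median of 107 on the lower side. Its Htr3a-line values ran from 7.40 to 745 CPM with a median of 122 on the high side, and from 0 to 116 with a median of 38.7 on the lower side. The sides overlapped in both lines. The differences were 2.62 in the Htr3a line (SD 1.69 on the high side and 2.79 on the lower, n = 15 and 8) and 1.22 in the Sst line (SD 1.12 and 0.87, n = 5 and 18). Sec61b, a small subunit of the translocon channel, was at 99.6, 108, 122, 138 and 337 CPM in the 5 high Sst-line cells and at 0 to 94.2 in the 18 lower ones. In that line the sides did not overlap for Sec61b. They did in the Htr3a line, at 0.315 to 617 against 0 to 54.8 CPM. Sec61b was named for the size of its difference, and the share of all tested genes without overlap was not counted. With the threshold at the line's median, the Sec61b difference in the Sst line was -0.44. Its differences were 1.71 and 3.08, and without the 9 cells 1.13 and 2.46. Those of Ssr4 were then 2.07 and 1.41.

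Srp9 and Srp14 encode the pair of proteins that bind the Alu end of the signal recognition particle. Srp9 differed by 1.91 and 1.43, and its 5 high Sst-line cells held 93.6, 267, 353, 442 and 866 CPM against 0 to 684 below. Srp14 differed by 0.79 and 2.07, and by -0.14 in the Htr3a line without replicate 6. Srp68, a large subunit of the same particle, went the other way at -0.80 and -2.63. Dad1, a small subunit of the oligosaccharyltransferase, differed by 1.86 and 1.48, whereas Rpn2, a large one, differed by -0.81 and -1.62. So subunits of 1 complex went in opposite directions. Without Sst-line replicate 17 the Rpn2 value in that line was -0.32.

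Among the ER chaperones, Pdia4, a protein disulfide isomerase, had the widest difference of the secretory genes in the Htr3a line. It was read in 14 of 15 high cells, at a median of 84.2 and a highest value of 597 CPM, and in 2 of 8 lower cells, where it did not pass 0.213 CPM. The difference was 5.42 (SD 2.56 on the high side and 0.11 on the lower). In the 10 high cells of that line with a low share of short transcripts, it ran from 33.7 to 597 CPM and did not overlap the lower side. How many other genes were so separated was not counted. In the Sst line it was at 0, 0, 52.8, 77.7 and 220 CPM in the high cells and was read in 8 of the 18 lower cells, at up to 255 CPM, a difference of 1.17, and -0.48 without the cells of high glial sum. Dnajc3, a co-chaperone of the ER, differed by 3.34 in the Htr3a line, where it was read in 11 of 15 high and 2 of 8 lower cells, and by 0.78 in the Sst line, or -0.23 there without replicate 1. Hspa5, the central ER chaperone BiP, differed by 0.89 and -2.82, and Hsp90b1 by -0.05 and -0.27. The 8 secretory genes with an ER stress response element had medians of 0.20 and -0.40. They therefore lay near the background of each line. Ddit3, a transcription factor of ER stress, differed by 0.28 and 1.66, and by -0.50 in the Htr3a line without replicate 6. Atf4, which acts before it, differed by -0.30 and -0.95, by 0.16 in the Htr3a line without replicate 9 and by 0.58 in the Sst line without replicate 17.

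Of the vesicle coat genes, Copa, the alpha subunit of COPI, was read in all 46 cells. It ran from 7.24 to 813 CPM with a median of 109 on the high side of the Htr3a line, against 126 to 1084 with a median of 372 on the lower side. Its differences were -1.88 and -1.69. The Sst-line value rested on replicate 23, at 0.743 CPM, since without that cell it was -0.32, and without the 9 cells it was 0.88. Gbf1, which activates the Arf proteins that recruit COPI, differed by -2.67 and -1.75, with reads in 28 cells, and by 0.15 in the Sst line without the 9 cells. Cope, another COPI subunit, differed by 1.35 and 1.15. The COPII GTPase Sar1b differed by 1.59 and 1.05, and the cargo receptors Surf4 by 2.37 and 1.46 and Ergic2 by 2.04 and 1.29. With any single cell left out, the smallest difference among these 3 was 0.65, for Sar1b in the Sst line.

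The granins, which condense the content of dense-core granules, had medians over 5 genes of -0.12 and -0.16, and of 0.40 and 0.31 without the 9 cells. Chga differed by -0.88 and -1.43, Chgb by 0.68 and 0.35, Scg2 by -0.83 and -0.16, Scg3 by 1.25 and -0.39 and Vgf by -0.12 and 1.58. The range of each overlapped between sides. Chgb differed by 1.99 and 1.52 and Scg2 by 0.40 and 0.31 without those cells. Single cells turned the sign of Chgb and Vgf in the Htr3a line (-0.30 without replicate 6 and 0.21 without replicate 21) and of Scg3 in the Sst line (0.77 without replicate 20). Of the genes for prohormone processing, 7 of 11 were higher on the high side in the Htr3a line and 2 of 11 in the Sst line, and 9 and 2 without the 9 cells, beside the shares over all genes given above. Cpe, the carboxypeptidase that trims the cut peptides, was at 907, 1161, 1331, 1504 and 2407 CPM in the high Sst-line cells against 489 to 5019.9 below, and its differences were -0.22 and -0.62. The Htr3a-line value of Cpe was 0.61 without the 9 cells. The convertase genes Pcsk1 and Pcsk2 were not read in any of the 5 high Sst-line cells, and in 5 and 8 of the 18 lower ones. Htr3a-line reads of both were found in 10 of 15 high cells, with differences of -0.93 and 0.11. Pam, which amidates peptides, a step that somatostatin does not undergo, differed by 2.68 and -0.60. Qpct differed by -0.17 and -2.50, Pcsk7 by 0.39 and -0.82, Furin by 0.47 and -0.95, Cpd by -0.59 and 0.89, and Pcsk5 by 0.50 and -0.73. Pcsk6 was read in 2 cells. The inhibitor Pcsk1n differed by 0.34 and -0.19, and Scg5, the helper protein of Pcsk2, by 0.11 and 0.75. Leaving out 1 cell turned Pcsk2 (-0.23 without replicate 19), Cpe (0.01 without replicate 20), Qpct (0.21 without replicate 16) and Scg5 (-0.05 without replicate 18) in the Htr3a line, and Pam (0.61) and Pcsk1n (0.10) in the Sst line without replicate 17. The 5 high Sst-line cells had Scg5 at 629.8, 882, 999, 1089 and 1329.6 CPM and the lower cells at 174 to 1549.

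The receptors for somatostatin itself were barely read. Sstr1 was read in 19 cells at no more than 34.1 CPM, with differences of 0.02, or -0.21 without Htr3a-line replicate 17, and -0.58. Sstr2 was read in 1 cell, Sstr3 in 1, Sstr4 in 4 and Sstr5 in 0. At these depths their comparison between sides was not possible.

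The gene that followed Sst most closely in the Sst line was Rab3b (chr4:108879063-108943324, GRCm38), a small GTPase of secretory vesicles. It was read in all 46 cells. On the high side of the Sst line it was at 813, 1550.1, 1724, 2514 and 2544 CPM, and on the lower side at 366 to 1373 with a median of 708. Rab3b in the Htr3a line ran from 0.630 to 2410 CPM with a median of 1546 on the high side, and from 196 to 1208 with a median of 687 on the lower. The only high cells of that line under 1208 CPM were replicates 20, 10 and 1, at 0.630, 479 and 595 CPM. The difference was 0.58 (SD 2.62 and 0.82), or 1.23 without replicate 20, and in the Sst line 1.23 (SD 0.67 and 0.61). Across the 23 cells of each line, its level and that of Sst had Spearman's rho of 0.54 and 0.89, and Pearson's r on log values of 0.01 and 0.86. Correlations here describe cells that share a library protocol and are given without a p. Rab3c, a close relative, differed by 0.99 and 0.42.

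The other genes most like Sst, by the mean of the within-line Spearman values over genes read in at least 23 cells, were Bex2, Mif, Atp5k, Cox17, Ndufc1, Stmn3 and Atpif1. Bex2 is a small adaptor protein, Mif a cytokine-like protein, Stmn3 a microtubule regulator and the others belong to mitochondrial respiration. Their rho lay between 0.66 and 0.76 in the Htr3a line and between 0.67 and 0.81 in the Sst line. Bex2 was at 988, 1751, 2155.5, 2373 and 5545 CPM in the 5 high Sst-line cells against 346 to 1665 below, and its differences were 1.23 and 1.33. Subunits of the nuclear-encoded respiratory chain made up 76 of the 11211 tested genes. Of the 7093 genes ranked, the 40 most like Sst held 20 of them.

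Most of the 40 genes most like Sst also had a short transcript. The annotated Sst transcript has 721 bases. Of the 40 genes most like it, 37 had an annotated length; their median was 646 bases and 29 were under 1000, whereas 8.83% of the 6830 genes with a length and reads in at least 23 cells were that short. Lengths are medians over annotated coding transcripts (GENCODE M21) and were not read from these cells. They were available for 10811 of the 11211 tested genes, or 96.4%.

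Length and direction went together over the other genes too, more so at high levels. Among tested genes at a mean level of 6 or more, the 171 with transcripts under 1000 bases had a median difference of 0.91 in the Htr3a line, with 149 higher, and of 1.21 in the Sst line, with 150 higher. The 371 genes of 3000 bases or more had medians of -0.11 and -0.77, with 165 and 92 higher. The gap was 1.02 and 1.98. Across these 1367 genes, which are not independent, Spearman's rho between length and difference was -0.31 and -0.45, and between GC content and difference 0.04 and 0.11. Over all 10811 tested genes with a length, rho between length and difference was weaker, at -0.10 and -0.12. The gap was then 0.46 and 0.89, and 2868 of the 4892 long genes were higher in the Htr3a line.

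**Figure D2:**
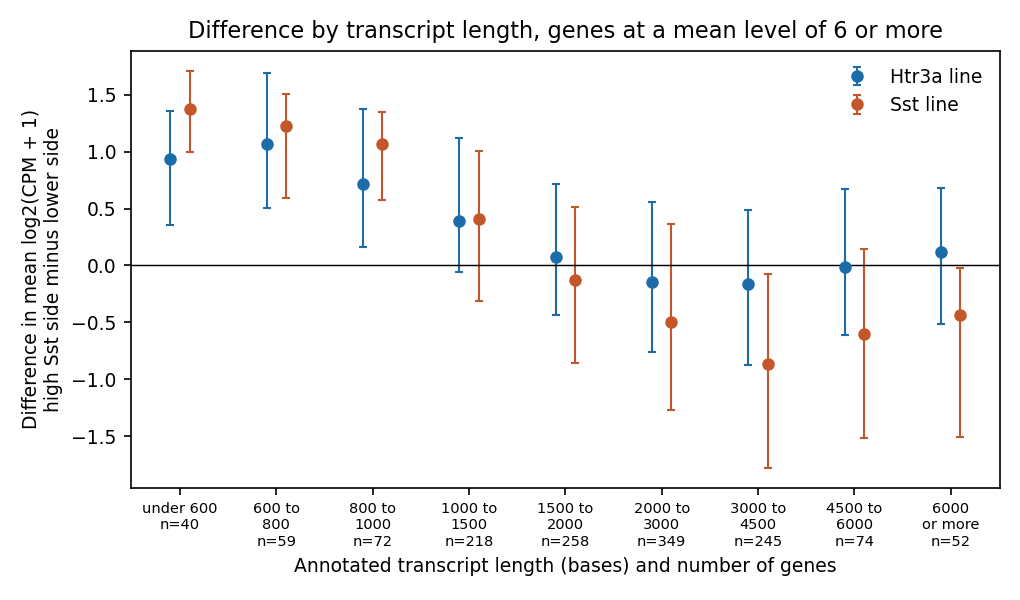
Median difference between sides (points) with the interquartile range over genes (bars) by annotated transcript length, for genes at a mean level of 6 or more, in each driver line. The medians are 0.94 and 1.37 under 600 bases and -0.17 and -0.87 between 3000 and 4500 bases in the Htr3a and Sst lines.

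The directions within the secretory pathway ran along the same axis. All 11 tested secretory genes under 1000 bases (Srp14, Srp19, Sec61b, Sec61g, Ssr4, Sec11c, Tmem258, Ppib, Fkbp2, Ddit3 and Atp6v1f) were higher on the high side in the Htr3a line and 10 of them in the Sst line, with medians of 0.79 and 1.22. Of all 781 tested genes under 1000 bases, 629 and 491 were higher. The 93 secretory genes of 1000 to under 3000 bases had medians of 0.11 and -0.39, and the 64 of 3000 bases or more had medians of 0.24 and -0.62. When each difference was set against the median of genes of the same length and level class, the translocon list stood at 0.31 and 0.18 in place of 0.61 and 0.56, and the whole pathway stood at -0.02 and 0.01. On that scale Srp14 was at -0.27 and 0.85, Ppib at -0.02 and 0.01, Sec61b at 0.30 and 1.76, Ssr4 at 1.55 and 0.00, Srp9 at 1.52 and 1.02, Pdia4 at 4.95 and 1.68, Rab3b at 0.73 and 1.73, Copa at -1.87 and -1.08 and Gbf1 at -3.04 and -1.56. Dad1 stayed at 2.01 and 1.98, with an annotated length of 2184.5 bases. That length is a median over annotated transcripts, and the form present in these cells was not read.

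**Figure D3:**
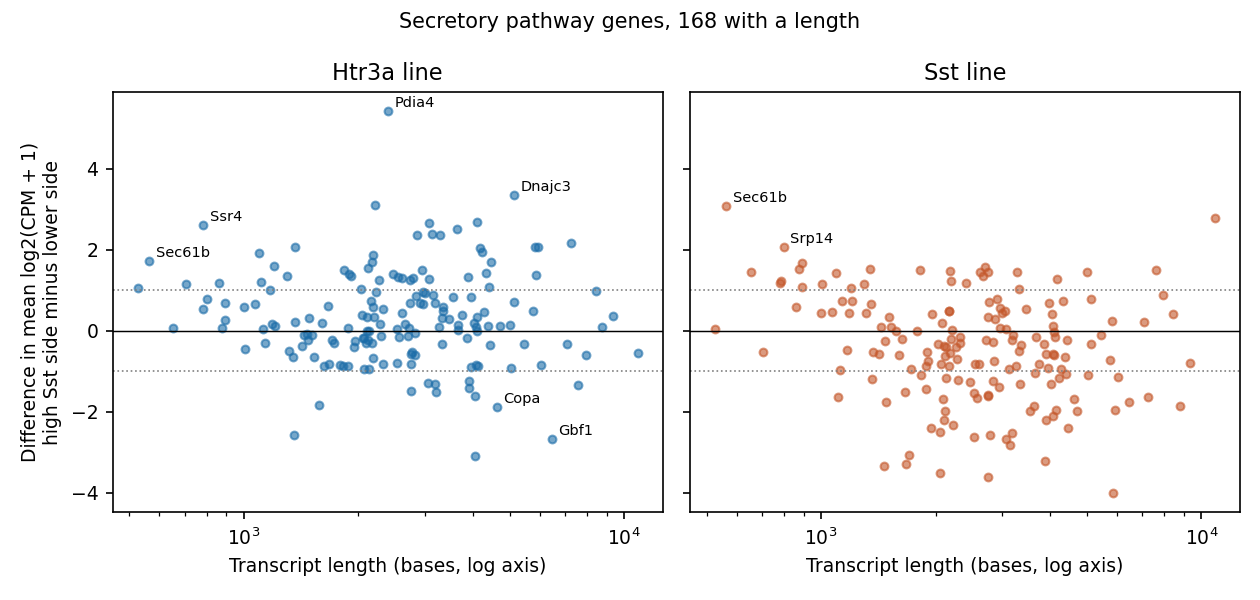
Difference between sides for each of 168 tested secretory genes with an annotated length, against that length on a log axis, in the Htr3a line (left) and the Sst line (right). Dotted lines mark the 2-fold limits and a few genes are labelled. The genes under 1000 bases lie above 0 except 1 in the Sst line.

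Families outside the pathway were picked by name after the pattern was seen, and they showed the same order only in part. The 47 nuclear-encoded respiratory chain genes under 1000 bases had medians of 1.06 and 1.43, and the 27 between 1000 and 3000 bases 0.08 and 0.46. The 2 of 3000 bases or more had 0.97 and 1.25. The 52 cytosolic ribosomal protein genes under 1000 bases had medians of 1.18 and 1.23, and the 24 between 1000 and 3000 bases 1.24 and 0.71. In the Htr3a line the short ribosomal protein genes thus did not stand above the longer ones. Against genes of like length and level the short respiratory chain genes stood at 0.10 and 0.17. The class medians include the family's own genes, so these values cannot tell length from family.

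The share of short transcripts also differed between the cells. Within the Htr3a line, transcripts under 1000 bases took 4.11% to 34.4% of the reads without Sst on the high side, with a median of 6.04%, against 3.93% to 7.24% with a median of 5.07% on the lower side. For the Sst line the ranges were 5.55% to 28.9% (median 11.9%) and 3.58% to 18.3% (median 5.26%). Log Sst and this share had Pearson's r of 0.77 and Spearman's rho of 0.53 over the 23 Htr3a-line cells, and 0.62 and 0.45 in the Sst line. Without the 2 cells farthest from the median of Sst the Pearson values were 0.66 and 0.39. Divided by the short-transcript sum, Sst still varied, with an SD on the log2 scale of 0.84 in the Htr3a line and 1.19 in the Sst line, against 1.32 and 1.50 for Sst itself. What sets the share was not tested.

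Without the 9 cells the gap between short and long transcripts was -0.16 in the Htr3a line and 0.85 in the Sst line. Over the remaining cells, log Sst and the short-transcript share had Pearson's r of 0.06 in the Htr3a line (n = 18) and 0.24 in the Sst line (n = 19). The 9 cells were left out for this same share, which cuts its range, so these values are no test of it. The 9 cells include the cell of highest Sst in each line, and the remaining cells reached 28653 CPM of Sst in the Htr3a line and 22297 in the Sst line. Over that range, the CPM level summed over the 180 secretory genes went up with Sst in both lines. The genes of high level weigh most in this sum. In the Htr3a line the sum ran from 35813 to 47877 CPM in the 10 high cells, with a median of 42952, and from 32210.4 to 39811 in the 8 lower cells, with a median of 36594. Only the lowest 2 of the high cells were below the top of the lower side. Pearson's r with log Sst was 0.67 and Spearman's rho 0.69, and without the 2 cells farthest from the median of Sst 0.73 and 0.70. In the Sst line r was 0.52 and rho 0.67 (0.51 and 0.65 without the farthest 2), and the 2 high cells, at 42641 and 44594 CPM, lay within the 29243 to 51376 of the lower cells. With all 23 cells the values were -0.26 and 0.04 in the Htr3a line and 0.24 and 0.32 in the Sst line. Gene by gene on the log scale and without the 9 cells, the median difference of the tested members was 0.61 in the Htr3a line beside 0.52 over all genes, and -0.28 in the Sst line beside -0.70. Since the 9 cells were chosen after the values were seen, this is a description.

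**Figure D4:**
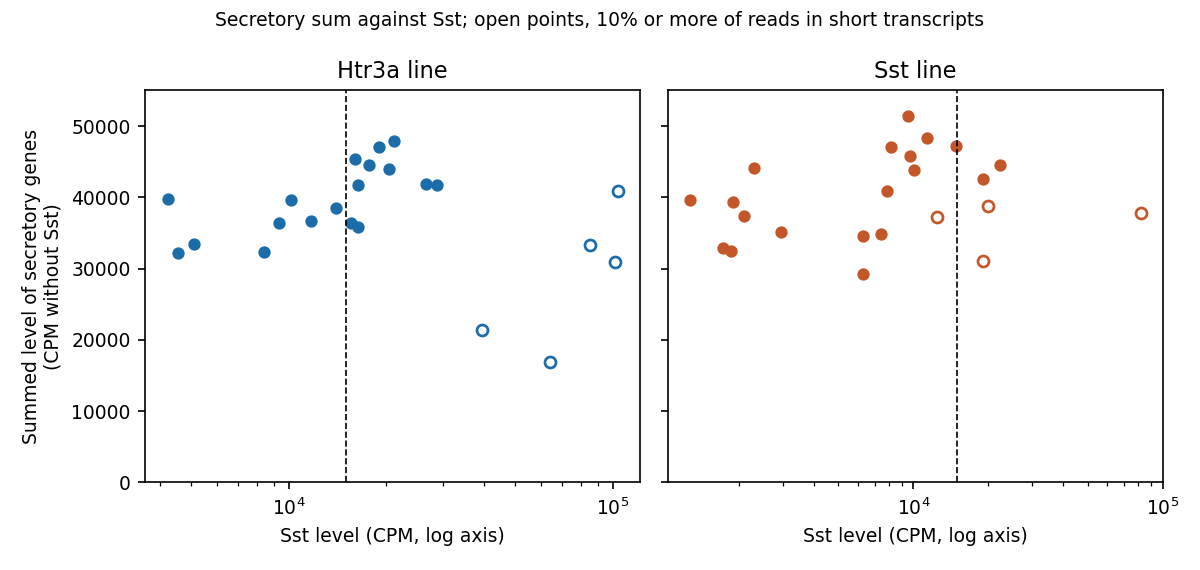
Summed level of 180 secretory genes in CPM without Sst against Sst in CPM on a log axis, for each cell of the Htr3a line (left) and the Sst line (right). Filled points, the 37 cells with under 10% of reads in short transcripts, go up with Sst in both panels, up to 28653 and 22297 CPM of Sst. The open points of the Htr3a line all lie at higher Sst than its filled points. Replicates 10 and 20 are lowest among them, at 21359 and 16944 CPM, and replicate 23, of highest Sst, is at 40847 CPM. In the Sst line the open points run from 31118 to 38805 CPM.

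The sum was recomputed without its largest members. Without Rab3b the 37 cells gave r of 0.64 and 0.48. Without the 10 members of the largest CPM, which include Cpe, Rab3a, Rab3b, Scg2 and 6 proton pump genes, they gave 0.64 and 0.63. By list, the granule maturation and exocytosis genes gave 0.56 and 0.44 and the proton pump genes 0.54 and 0.42. The oligosaccharyltransferase gave 0.64 and 0.02, and the COPI and Golgi genes -0.19 and 0.37. A rise in both lines was not particular to the secretory lists. The synaptic vesicle release genes gave 0.30 and 0.50 and the CREB pathway genes 0.43 and 0.69. The OLM identity genes gave 0.40 and 0.59, and other neuropeptides and secreted cargo 0.43 and 0.57. The GABAergic genes gave 0.24 and -0.07, the immediate early genes -0.22 and -0.21 and the CGE lineage genes -0.36 and -0.30.

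Gene by gene, Rab3b ranked 1 of 7046 genes for likeness to Sst in the 37 cells, with rho of 0.76 in the Htr3a line and 0.88 in the Sst line (r of 0.76 and 0.84). The next were Ache, the gene of acetylcholinesterase, at 0.79 and 0.68, and Syngr3, a synaptic vesicle protein, at 0.77 and 0.63. Bex2 was at 0.51 and 0.65 and Mif at 0.37 and 0.71. Rab3b ran from 595 to 2163 CPM in the 10 high Htr3a-line cells and 196 to 1208 in the 8 lower. Pdia4 gave rho of 0.80 in the Htr3a line and 0.29 in the Sst line. Chgb, whose promoter window carries a CRE as that of Sst does, gave 0.75 and 0.36, Scg2 -0.01 and 0.22 and Cope 0.17 and 0.14, both of which also carry one. With all cells, the 4 secretory genes with a CRE had median differences of -0.07 and 0.10, with 2 of 4 higher in each line. Pcsk1, the other of the 4, differed by -0.93 and -1.09. Over the 148 secretory genes in this ranking the median rho was 0.10 and 0.11, against 0.08 and -0.04 over all.

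Among genes outside the pathway, the synaptic vesicle release list had 10 of 17 members lower on the high side in both lines, where 24.3% of all genes were, with medians of -0.58 and -0.41. Syn1, a vesicle phosphoprotein, was at 0.0546 to 1227 CPM in the 5 high Sst-line cells against 212 to 1143 below, with differences of -1.32 and -3.41. Without the 9 cells the list's medians were 0.25 and 0.41, with 12 and 14 of the 17 higher. The GABAergic list had medians of 0.02 and -1.01, and its summed level ran from 390 to 6382 CPM on the high side and 2368 to 5983 on the lower side of the Htr3a line. The lowest sums were those of Htr3a-line replicates 10, 11 and 20, which are among the 9. Immediate early genes, which respond to recent activity, had medians of 0.10 and -0.81. Their summed level and Sst had rho of -0.59 and -0.53, and -0.27 and -0.53 without the 9 cells. Junb, 1 of them, differed by -1.83 and -2.24. Of the CREB pathway, 6 of 18 genes were higher in both lines and 4 lower, and shares of 25.5% and 24.3% were found over all genes. Atf1, a relative of Creb1, differed by 1.11 and 2.61, and Prkaca, the catalytic subunit of protein kinase A, by -1.53 and -1.02. Both turned in the Sst line without the 9 cells, to -1.51 for Atf1 and 1.18 for Prkaca.

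Other secreted cargo went its own way. Cbln4, a secreted synaptic organiser, was read in 2 of 15 high and 5 of 8 lower cells of the Htr3a line, with a highest value of 38.8 against 658 CPM, a difference of -4.77. In the Sst line it was read in 2 of 5 and 8 of 18 cells, a difference of -1.88, and without the 9 cells the differences were -4.59 and -3.20. Igf1, a growth factor, differed by 2.44 and 1.08, and in the Sst line by -0.01 without replicate 20. Npy and Pnoc, peptide genes of OLM cells, differed by -1.05 and -0.17 in the Htr3a line and by 2.39 and 2.07 in the Sst line, and Cort, the relative of Sst, by -0.09 and 4.10. Npy thus went opposite ways in the 2 lines, while Pnoc and Cort changed little in the Htr3a line. This difference between the lines was not tested.

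The 12 genes highest on the high side, ranked by the smaller of the 2 line differences, were Rtf1, Fut9, Supt6, Rpe, Cdh9, N6amt2, Sf3b6, Med6, Bag4, Alkbh7, Rnf181 and Kpna3. Rtf1 and Supt6 encode factors of transcription elongation. Rtf1 was at 7.78, 40.4, 85.2, 111 and 352 CPM in the 5 high Sst-line cells against 0 to 397 below, and its differences were 3.09 and 2.93. Cdh9, a cadherin, differed by 2.56 and 3.38. The 12 lowest were Sh3bgrl2, Olfm3, Nr1d2, Esco1, Rbm7, Sf3a1, Sin3b, Spry4, Cpne2, Fahd1, Irf5 and Ccnl1. Sh3bgrl2 was not read in any of the 5 high Sst-line cells and was read in 16 of the 18 lower ones at up to 226 CPM, and in the Htr3a line it was read in 8 of 15 high and 7 of 8 lower cells. Its differences were -3.56 and -4.94. Nr1d2, the nuclear receptor Rev-erb beta of the circadian clock, differed by -3.21 and -3.66, with 0 to 147 CPM against 9.85 to 798 in the Htr3a line. Olfm3, a secreted olfactomedin, differed by -3.52 and -4.14. For each of these 24 genes the difference kept its sign when any single cell was left out, but they are the extremes of 11211 genes and were picked for their size.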

How the data were processed

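The deposited table holds raw read counts per gene symbol for 46 patch-aspirated cells. Per the submitters' processing notes, reads were handled with Trimmomatic, STAR and featureCounts on GRCm38. The sources used here give no version, strand setting or annotation for them. The authors' deposited normalized signal equals count divided by a factor per cell, within 0.1% for 100% of values. The Ensembl-level count table gave the same Sst counts in 46 cells.

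CPM was computed from the counts, Sst was taken out, and CPM recomputed. A pseudocount of 1 was used and no count model was fitted, because each cell is a sample with no animal named; depth limits rare genes. The script was tested on simulated data. Members and lists were chosen with earlier results of these data known. Named genes were all measured granins, processing genes and somatostatin receptors. From other lists came up to 3 (secretory) or 2 (others) with reads in at least 12 cells, 1 sign in both lines and the largest smaller difference. Over all genes came the 12 highest and 12 lowest by that measure and the 8 most like Sst, read in at least 23 cells; sex-linked, mt-, predicted and pseudogenes were left out. Other genes were named after their values were seen. Sequences are from RefSeq and lengths from GENCODE M21, which held 21969 of 22800 symbols. Python 3.11.15 with numpy 2.4.6, pandas 2.3.3 and scipy 1.17.1 was used, and edgeR 4.0.16 for TMMwsp factors in an alternative. Alternatives changed the Sst threshold, pseudocount, scaling, depth, minimum level, summary and cells.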

Additional observations from a re-analysis of the deposited data

Results flagged for a closer look

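Among the 5 high cells of the Sst line, replicate 17 stood apart in the number of genes read, at 3224. It was farther from its nearest neighbour than the 95% critical value for a gap allows. This describes a gap between single cells and not a difference between conditions. With 2 groups of cells and 5 quantities, 10 combinations were examined, of which 1 held such a cell, and chance gives about 1 in 20.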

How the results depend on the processing

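Cells are not replicates, so no result carries a p-value. No paired analysis was possible because the replicate numbers only name single cells in accession order. Genes higher or lower by the fold numbered 3014 and 1316 in the Htr3a line, 1769 and 3271 in the Sst line and 1548 and 754 pooled. At 10000 CPM of Sst, 4637 were higher in the Htr3a line. At 20000 CPM, 1201 were higher and 3093 lower in the Htr3a line, 2847 higher in the Sst line and 1786 lower pooled. With the threshold at each line's median, 1851 were higher in the Htr3a line. A pseudocount of 10 CPM gave 793 and 619, 821 and 1428, and 253 and 192. Summed CPM gave 1656 lower pooled, and leaving out cells of high glial sum 1407. Leaving out the 12 cells with the fewest genes read gave 2807 lower in the Htr3a line and 1197 pooled. Relative to the median of all genes, an alternative chosen after seeing the data, 2069 were lower in the Htr3a line. Without the 9 cells rich in short transcripts, also chosen after seeing the data, 2389 were higher pooled, and the gap between short and long transcripts was -0.16 in the Htr3a line and 0.85 in the Sst line. These cells were left out for their short-transcript share, so the change in the gap is no test of it. The cause was not tested.

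Leaving out 1 cell at a time, the secretory median ran from -0.02 to 0.50 in the Htr3a line, -0.73 to -0.13 in the Sst line and -0.07 to 0.23 pooled. Counts ran from 2512 to 3545 and 1085 to 1863, from 1686 to 2605 and 2644 to 4015, and from 1386 to 1903 and 605 to 902. The gap between short and long transcripts ran from 0.78 to 1.24, 1.44 to 2.55 and 1.05 to 1.40.

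Listed first are the named genes whose difference reached the fold and changed sign. At 10000 CPM these were Gbf1 (0.21), Nr2f2 (0.72) and Fahd1 (0.089) in the Sst line. At 20000 CPM they were Magt1 (-0.56), Elfn1 (-0.50) and Rpe (-0.65) in the Htr3a line and Sec63 (0.00245), Qpct (0.64), Nr2f2 (0.063), Atf3 (0.32) and Med6 (-0.16) in the Sst line. At the median they were Sec61b (-0.44), Ppib (-0.30), Pcsk1 (0.31), Nr2f2 (1.09), Atf1 (-0.023), Prkaca (0.39), Bag4 (-0.36) and Kpna3 (-0.99) in the Sst line. Summed CPM turned Kcnd2 (-0.22) in the Htr3a line. Leaving out cells of high glial sum turned Hsph1 (0.028) in the Htr3a line and Pdia4 (-0.48) in the Sst line. Leaving out the 12 cells with the fewest genes turned Igf1 (-0.87) and Fosb (-0.0562) in the Htr3a line. Without the 9 cells Atp6v0a1 (0.31) turned in the Htr3a line, and Gbf1 (0.15), Copa (0.88), Igf1 (-0.40), Atf1 (-1.51), Prkaca (1.18), Rims2 (0.27) and Cacna1a (-0.15) in the Sst line. Leaving out 1 Sst line cell at a time, Igf1 ran from -0.0097 (without replicate 20) to 2.35 (without replicate 17). Smaller differences turned more often. Of 220 named values, each a gene in 1 line, 42 turned when some single cell was left out and 39 without the 9 cells, among them Scg2 in both lines (0.40 and 0.31) and Cpe in the Htr3a line (0.61). TMMwsp factors turned 8 values, thinning to 3000000 reads and the deposited normalized values 2 each, and CPM with Sst in the total and other minimum levels 0; none of these had reached the fold.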

Other observations

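Ion channel genes went opposite ways in the lines, with medians of 0.83 in the Htr3a line and -1.05 in the Sst line over 20 genes. All tested genes did so too, with medians of 0.33 and -0.34. Cacna1a, the pore subunit of P/Q-type calcium channels, was read in 13 of 15 high and 4 of 8 lower Htr3a-line cells, a difference of 3.46. In the Sst line its difference was 1.61, and -0.15 without the 9 cells rich in short transcripts. Markers of glutamatergic neurons were low but not absent. Fibcd1, a marker of CA1 pyramidal cells, was read in 9 of 15 high and 1 of 8 lower Htr3a-line cells, at up to 253 and 16.9 CPM, and in 2 of 5 and 4 of 18 Sst-line cells. The difference between the lines was not tested.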
